A study of Homo sapiens with 14 samples.

Results

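The globin mRNAs of K562 cells, a human erythroleukaemia line, were followed through 4 chemical probing profiles. The members were the gamma globins HBG1 and HBG2, the epsilon globin HBE1, the zeta globin HBZ and the alpha globins HBA1 and HBA2, taken as every transcript whose Ensembl identifier belongs to one of these gene names. All 6 genes were found, among 6714 named genes with a transcript in any profile. They had 17 of 20512 transcripts, and all 17 were in all 4 profiles, as were 10589 of the 20512. In icSHAPE, NAI-N3 acylates the ribose hydroxyl of flexible nucleotides, and in icLASER, light-activated NAz-N3 reacts with the C8 of solvent-exposed purines. The 14 libraries were 3 of K562 cells treated with 100 mM NAI-N3 for 5 min (icSHAPE in vivo), 2 of isolated and refolded K562 RNA treated in the same way (icSHAPE in vitro) and 3 of a DMSO control. For icLASER there were 2 libraries in vivo and 2 in vitro, in which 5 µl of a 1 M NAz-N3 stock was added to 45 µl of sample with 10 min of UV light, and 2 controls that received no UV. The labels give the cell line as the one source of all groups and name no other treatment.

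Haemoglobin is a tetramer of alpha-type and beta-type chains, and each gene cluster is expressed in the order of development. HBZ encodes the embryonic alpha-type chain and HBA1 and HBA2 the alpha chain that follows it, on chromosome 16. HBE1 encodes the embryonic beta-type chain and HBG1 and HBG2 the fetal chains, on chromosome 11. K562 is known for an embryonic and fetal globin programme. Globin mRNAs are short, highly translated and long-lived, and the alpha-globin 3′ UTR carries a pyrimidine-rich stretch known to bind poly(C)-binding proteins.

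Each profile is a pool made by the authors, with 1 RPKM per transcript and 1 enrichment score per nucleotide from 0 to 1. There is therefore no replicate error for any value here and no test across samples, and differences are given as descriptions beside the same measure in all transcripts. The read depth behind single scores is unknown. Of the scored nucleotides of a transcript with an RPKM of at least 100, 5.00% to 5.22% had a score of exactly 1 (5th percentile and highest 95th percentile of the 4 profiles), and in the 6 globin mRNAs the share was 4.99% to 5.12%. A score thus ranks a nucleotide against the top of its own transcript in its own profile, and a mean difference between profiles is relative to that top. The profiles held 12256 to 16648 transcripts, with a lowest RPKM of 5.01 to 5.13.

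In GRCh38 coordinates, the coding sequences lie at chr11:5248359-5249804 for HBG1, chr11:5253277-5254728 for HBG2 and chr11:5268469-5269890 for HBE1, all on the minus strand. Those of HBZ, HBA1 and HBA2 lie at chr16:152910-154400, chr16:176717-177411 and chr16:172913-173600 on the plus strand, and each of the 6 coding sequences runs over 3 exons. The most covered transcript of HBA1, 577 nt, had the length of the GENCODE 44 model. The other 5 did not, and they were placed on the genome by the correlation of their scores with the mean score of each 5-nt sequence in other transcripts. The placed HBG1 mRNA had 35 nt more at its 5′ end and 186 nt more at its 3′ end than the model. HBG2 had 30 nt more at its 5′ end and HBA2 29 nt more, and HBZ began 43 nt inside its model. HBE1 was placed on the model of a shorter isoform and had 213 nt more at its 5′ end. Most of its 268-nt 5′ UTR thus lies outside that shorter model. A longer HBE1 transcript of 913 nt, equal in length to its own model, shares 825 of the 827 nt placed. The best place of the 6 unequal transcripts had a mean correlation of 0.592 to 0.710 and the next best place at most 0.149, and all 11 transcripts of equal length returned to their own place. In each of the 6 mRNAs the first scored nucleotide was number 7 and the last 30 nt had no score.

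The gamma globins were the most covered of the 6 in every profile. HBG1 had an RPKM of 2652 in the icSHAPE in vivo profile, 2105 in vitro, 1763 in icLASER in vivo and 1225 in vitro, and ranked 33, 48, 38 and 76 among all transcripts. HBG2 had 2347, 1904, 1429 and 1070 in the same order, below HBG1 in all 4. The pair shares most of its sequence and the assignment of shared reads is unknown, so this order cannot be read as a ranking of the genes. The embryonic beta-type HBE1 was the lowest of the 6 throughout, with 145.5 and 104.8 in icSHAPE and 71.6 and 50.3 in icLASER. Among the alpha-type genes, HBZ had 521 and 260.2 in icSHAPE and 403 and 339.9 in icLASER. HBA1 had 509 and 277 in icSHAPE and 299.8 and 344 in icLASER. HBA2 had 510.4 and 319.9 in icSHAPE and 272 and 329 in icLASER. The order of these 3 alpha-type genes differed between profiles.

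RPKM was higher in vivo than in vitro for all 6 genes in icSHAPE, as for 70.1% of all transcripts, and for 4 of 6 in icLASER, beside 62.3%. Of the 6, only HBZ differed by at least 2 times (ratio 2.00), where 2.94% of all transcripts differed by that much in either direction. Divided by the median RPKM of the transcripts in all 4 profiles, no globin gene reached 2 times. The icSHAPE ratios of HBA1 (1.84) and HBA2 (1.60) were above 99.5% and 97.8% of all transcripts, and that of HBZ above 99.7%. In icLASER the alpha globins went the other way, with ratios of 0.870 for HBA1 and 0.825 for HBA2, and HBZ stood at 1.19. The ratios of the chromosome 11 genes were 1.23 to 1.39 in icSHAPE and 1.33 to 1.44 in icLASER. None of the 6 icLASER ratios reached 2 times, against 3.6% of all transcripts. Fewer copies of an mRNA and fewer reads per copy cannot be told apart in these pools.

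Of 7 other globins on a fixed list, 3 had an RPKM in every profile, and the rest were not analysed here. Each value in this paragraph is that of 1 transcript per gene. Other transcripts of the gene were not added and may be absent from the profiles, so a low value does not measure the whole gene. HBQ1, the theta globin, had 62.5 to 91.3. HBM, the mu globin, had 18.8 to 40.3, and HBD, the delta globin, 9.38 to 23.1. All 3 were below HBZ, HBA1 and HBA2 in each profile. HBQ1 was above HBE1 in icLASER (91.3 against 71.6 in vivo, 62.5 against 50.3 in vitro) and below it in icSHAPE. Of 9 enzymes of haem synthesis, UROD (uroporphyrinogen decarboxylase) was the 1 with a transcript in every profile, at 24.3 to 34.7. Among the haem and erythroid partners listed, SLC25A37, the mitochondrial iron importer, had 26.4 to 110.9 and TFRC, the transferrin receptor, 9.24 to 17.97. GATA1 (73.0 to 99.7) and KLF1 (53.8 to 71.3), erythroid transcription factors, also had values in all 4 profiles.

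The difference between cells and refolded RNA had opposite signs along the globin mRNAs. Mean scores upstream of the start codon were mostly lower in vivo, whereas those in the coding sequence and the 3′ UTR were mostly higher. In icSHAPE the 5′ UTR mean was lower in vivo in 6 of 6 genes (differences of -0.120 to -0.0185), where 69.3% of coding transcripts were higher in vivo in this region. The median difference over positions was 0 in HBE1, HBZ, HBA1 and HBA2. More nucleotides were higher than lower in vivo in HBZ (100 and 67), HBE1 (112 and 93) and HBA1 (14 and 12), and with A and G alone the HBA1 mean was 0.00693 higher in vivo. The placed 5′ UTRs of HBG1, HBG2 and HBA2 include nucleotides upstream of the annotated 5′ end, which the compared transcripts lack. For HBE1 that holds against its shorter model alone, since a longer annotated transcript covers nearly all of its placed nucleotides. Over the 31 scored HBA2 nucleotides shared with HBA1, the icSHAPE mean was 0.0747 in vivo and 0.0856 in vitro. Over its whole 5′ UTR HBA2 had 0.129 and 0.215, so its difference lay mainly upstream of the shared part. No such split was made for HBG1, HBG2 and HBE1. In icLASER the 5′ UTR mean was lower in 5 of 6 (-0.147 to 0.00393), and 26.4% of coding transcripts were higher. The coding sequence was higher in vivo in 6 of 6 genes in icSHAPE (0.0342 to 0.0738), beside 80.6% of coding transcripts. In icLASER 5 of 6 were higher (-0.00880 to 0.0585), beside 55.2%. After division by the mean of each transcript, an alternative chosen after seeing the data, 3 of 6 coding sequences were higher in icLASER. The 3′ UTR was higher in 6 of 6 in icSHAPE (0.0515 to 0.0876) and 6 of 6 in icLASER (0.0443 to 0.106), beside 79.4% and 85.7% of coding transcripts. When scores were replaced by their rank within the transcript, also chosen after seeing the data, the icSHAPE 3′ UTR differences of HBG1 and HBZ turned negative and 4 of 6 were higher. Over whole transcripts all 6 were higher in vivo with both reagents, as were 91.1% of coding transcripts in icSHAPE and 68.7% in icLASER. The whole HBG1 transcript includes 156 scored nucleotides past its annotated 3′ end. With each profile divided by its own mean the icSHAPE count was 4 of 6. The icLASER count was 5 of 6 with A and G alone and 5 of 6 without the first and last 50 nt. Among transcripts with an RPKM of at least 100 in both profiles, chosen after seeing the data and closer to the globins in coverage, the icSHAPE shares were 61.5% for the 5′ UTR, 60.7% for the coding sequence and 82.4% for the 3′ UTR. The icLASER shares were 20.1%, 78.9% and 85.9%. With 1 transcript per gene, also chosen after seeing the data, 46.6% of coding sequences were higher in icLASER. In icSHAPE the 5′ UTR count went against the majority of transcripts in each of these sets, and in icLASER the direction of the majority for the coding sequence depended on the set. The pairs HBG1 and HBG2, and HBA1 and HBA2, share most of their sequence and reads, so the 6 genes are not 6 separate observations.

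The gamma 5′ UTRs carried the largest differences. The mean of HBG1 was 0.307 in vivo and 0.418 in vitro in icSHAPE, and 0.235 and 0.382 in icLASER. That of HBG2 was 0.312 and 0.432 in icSHAPE, and 0.230 and 0.364 in icLASER. In icSHAPE these differences were below all but 3.25% and 2.65% of coding 5′ UTRs, and in icLASER below all but 7.96% and 9.95%. The placed 5′ UTRs include 35 nt of HBG1 and 30 nt of HBG2 upstream of the GENCODE 44 model, while the compared transcripts have the length of their model. The percentiles therefore describe the placed 5′ UTRs, and none was computed for the annotated part alone. The HBG2 5′ UTR held 13.6% of the scored nucleotides of its mRNA. It held 36.7% of the summed icSHAPE score in vitro and 21.9% in vivo, and 31.3% and 17.4% in icLASER. Of the 29 HBG2 nucleotides at a score of 1, 19 lay in the 5′ UTR in icSHAPE in vitro and 12 in vivo. The stretch of 30 nt with the largest absolute icSHAPE difference was at the 5′ end in both genes, starting at the first scored nucleotide and lying mostly upstream of the 5′ end of the GENCODE 44 model. It is shown with capitals at nucleotides that were reactive (score of at least 0.5) in vivo and then in vitro.
HBG2 chr11:5254776-5254805 minus strand, in vivo: GGaagCacccUucagCaGuUcCaCacaCuc
HBG2 chr11:5254776-5254805 minus strand, in vitro: GGAAGCaccCUUcAgcaGUUCCACacaCuc
The mean of this stretch was 0.389 in vivo and 0.612 in vitro, with 10 and 18 reactive nucleotides. In HBG1 the stretch with the largest difference, nt 7 to 36, had 0.366 and 0.558. In both genes this icSHAPE difference exceeded that of the whole placed 5′ UTR. The rest of the 5′ UTR, which lies within the model, therefore had a smaller mean difference. For HBG2 in icLASER the largest difference also lay in the 5′ UTR, at nt 44 to 73, with a mean of 0.178 in vivo and 0.406 in vitro and 27 of 30 nt lower in vivo.

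The embryonic HBE1 mRNA behaved differently with the 2 reagents. Its long 5′ UTR had means of 0.229 in vivo and 0.247 in vitro in icSHAPE, and 0.138 and 0.135 in icLASER, so that the regional difference was near 0 in icLASER. Within that near-zero mean, nt 211 to 240 had the largest 30-nt icLASER difference of the mRNA, with 0.158 in vivo and 0.460 in vitro and 24 of 30 nt lower in vivo. Its first nucleotide lies at -58 from the start codon, and it is shown with capitals at nucleotides reactive in vivo and in vitro.
HBE1 chr11:5269919-5269948 minus strand, in vivo: agCacauaucugcuuccGacacagcugcaa
HBE1 chr11:5269919-5269948 minus strand, in vitro: AGCACAUAuCUGcuuccGacacagcuGcaA
There were 2 reactive nucleotides in vivo and 14 in vitro. The HBE1 coding mean was 0.129 in vitro and 0.180 in vivo in icSHAPE, and 0.193 and 0.184 in icLASER, the 1 coding sequence of the 6 with a lower icLASER mean in vivo. Its largest icSHAPE difference was in the coding sequence, in a 30-nt stretch that starts at nt 533, where the mean was 0.272 in vivo and 0.0832 in vitro and 28 of 30 nt were higher in vivo. RPKM was lowest for this gene, and the share of scores at 0 in its coding sequence was 13.3% in vivo and 33.3% in vitro in icSHAPE; the part of coverage in its differences was not tested.

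HBZ had the largest coding difference of the 6 genes with both reagents. Its coding mean was 0.185 in vivo and 0.111 in vitro in icSHAPE, and 0.215 and 0.156 in icLASER. The differences were above 93.8% and 92.1% of coding transcripts. Scores of 0 made up 11.9% of its coding sequence in vivo and 31.5% in vitro in icSHAPE, where its RPKM ratio was 2.00. In icLASER they made up 10.0% and 14.5%. The part of coverage in these differences was not tested. The 5′ UTR of HBZ held 51.4% of the summed icSHAPE score in vitro and 29.0% in vivo, on 30.2% of the scored nucleotides. The largest 30-nt difference in icSHAPE was at nt 31 to 60 of this 5′ UTR (0.113 in vivo, 0.389 in vitro). In icLASER it was in the coding sequence at nt 377 to 406, where the mean was 0.431 in vivo and 0.177 in vitro. These 30 nt, with capitals at nucleotides reactive to NAz-N3 in vivo, had 9 reactive nucleotides in vivo and 2 in vitro.
HBZ chr16:153950-153979 plus strand, in vivo: ggGuccgcgcAGuugcgcgCGCacggCUcC

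**Figure D1:**
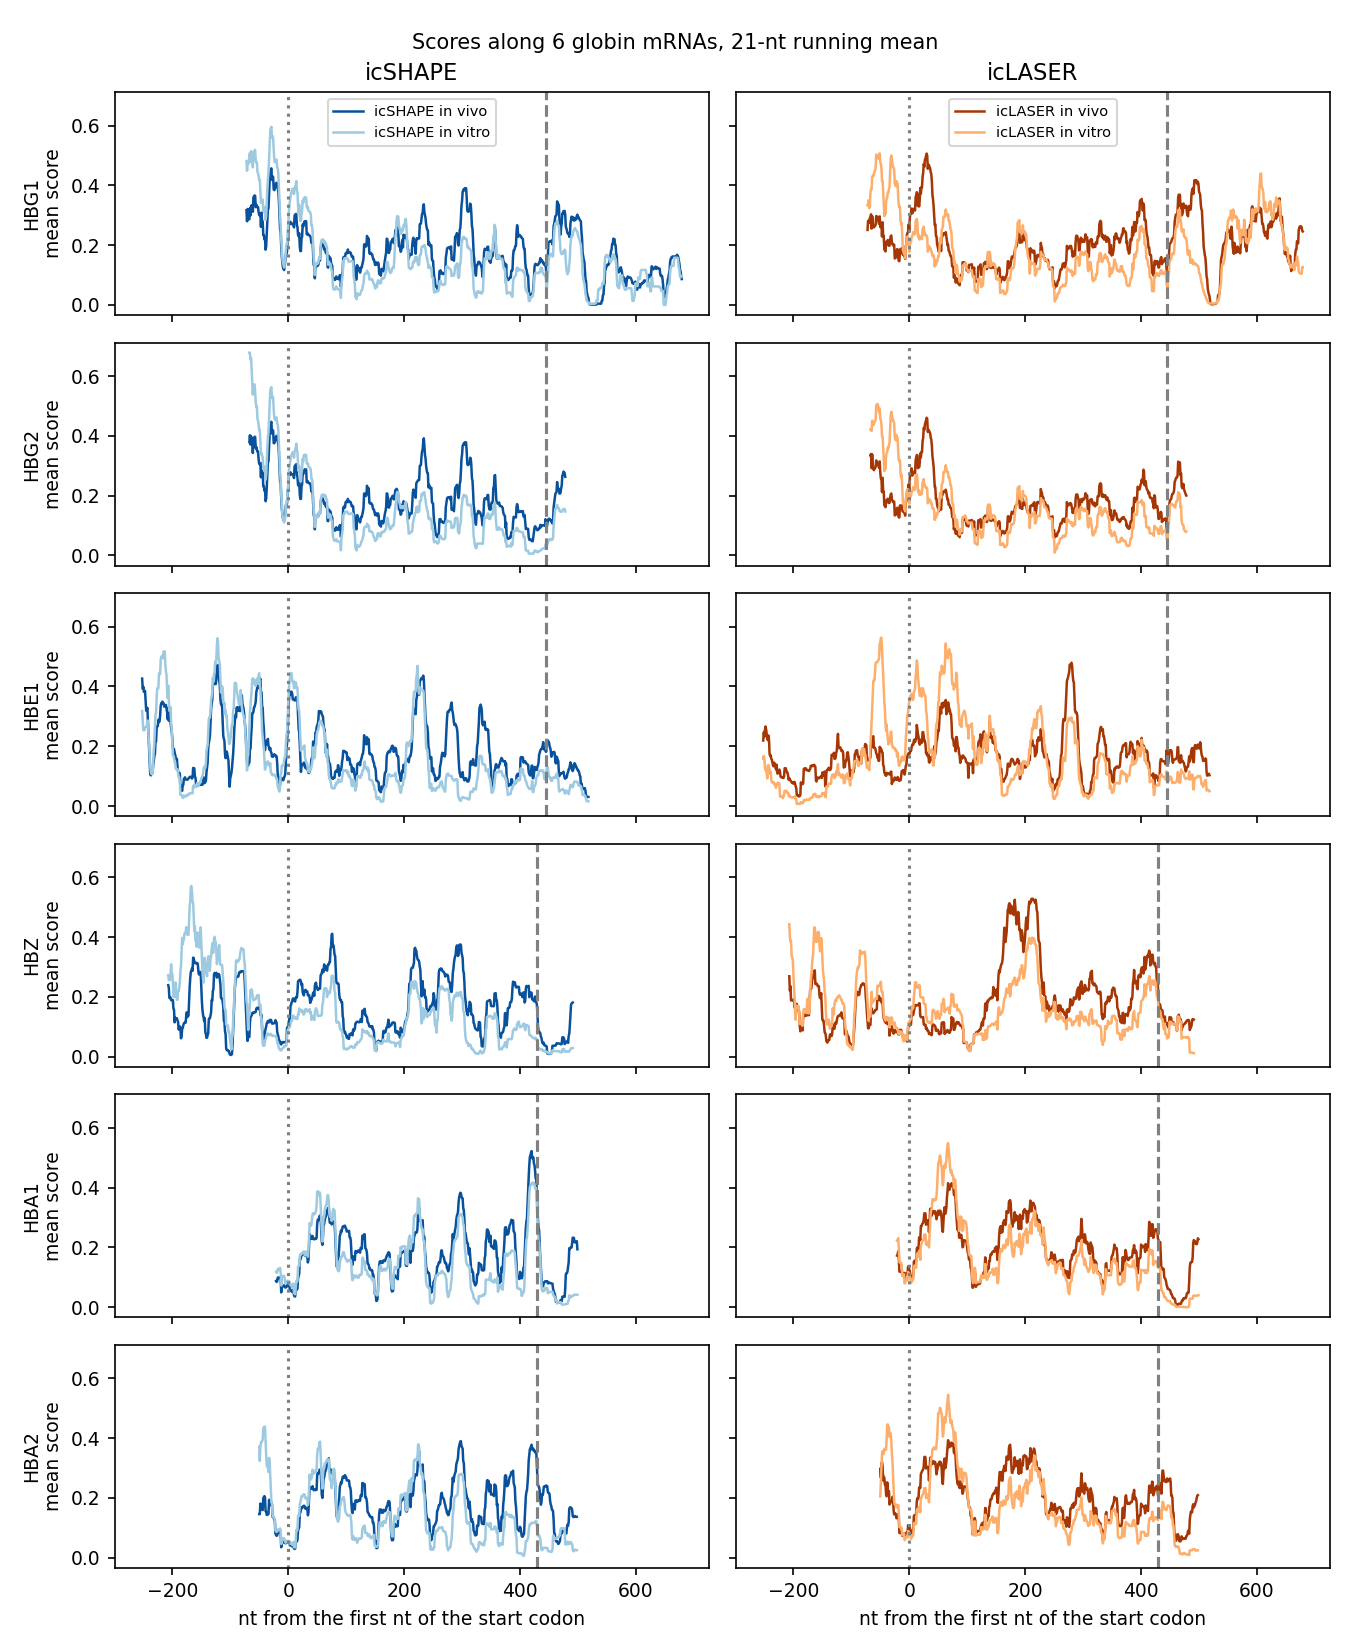
Running mean of the score over 21 nt along each globin mRNA (rows), icSHAPE left and icLASER right, dark lines in vivo and light lines in vitro, against nt from the start codon; dotted lines mark the start codon and dashed lines the end of the coding sequence. Upstream of the start codon the in vitro line is mostly above the in vivo line in HBG1, HBG2 and HBZ, and downstream it is mostly below.

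In the alpha globin mRNAs, as in the other globin mRNAs, the 3′ UTR was higher in vivo with both reagents. For HBA1 and HBA2 the 3′ UTR difference was above 81.5% and 92.3% of coding transcripts in icSHAPE, and above 69.1% and 74.5% in icLASER. The 5′ UTR of HBA1, 37 nt long with 31 scored, had means of 0.0916 in vivo and 0.123 in vitro in icSHAPE and 0.150 and 0.179 in icLASER. In HBA2, with 60 scored nucleotides, they were 0.129 and 0.215 in icSHAPE and 0.196 and 0.203 in icLASER. Over the 31 of these that HBA2 shares with HBA1, its means were 0.0747 and 0.0856 in icSHAPE and 0.115 and 0.136 in icLASER. The coding sequences were higher in vivo by 0.0342 and 0.0561 in icSHAPE and by 0.0243 and 0.0359 in icLASER for HBA1 and HBA2. In the HBA1 3′ UTR the icLASER mean was 0.103 in vivo and 0.0227 in vitro, and 54 of 81 nucleotides were higher in vivo and 0 lower. In the HBA2 3′ UTR it was 0.158 and 0.0658. In icSHAPE the 3′ UTR means were 0.0952 and 0.0356 for HBA1 and 0.129 and 0.0426 for HBA2. The largest 30-nt icSHAPE difference of HBA1 was in the 3′ UTR at nt 510 to 539, with a mean of 0.174 in vivo and 0.0326 in vitro. That of HBA2 spanned the stop codon, at nt 486 to 515, with 0.332 and 0.0814 and 29 of 30 nt higher in vivo. In icLASER the stretches with the largest absolute differences were lower in vivo in both genes. They were at nt 82 to 111 in the HBA1 coding sequence, with 0.376 in vivo and 0.532 in vitro, and at nt 20 to 49 in the HBA2 5′ UTR, with 0.176 and 0.355. Scores of 0 made up 63.0% of the HBA1 3′ UTR in vitro and 25.9% in vivo in icSHAPE, and 70.4% and 33.3% in icLASER, while the RPKM of HBA1 was lower in vitro in icSHAPE and higher in vitro in icLASER. The part of coverage in these differences was not tested.

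The motif CCUCC, searched on the mRNA strand with overlaps counted, occurred 3 times in HBA1, 5 times in HBA2, 2 times in HBZ, 1 time in HBE1 and 0 times in the gamma 3′ UTRs, and 21.2% of other coding transcripts hold it in their first 110 nt of 3′ UTR. In HBA1, the motif 38 nt after the stop codon had a mean score of 0.00920 in icSHAPE in vivo and 0 in the other 3 profiles. The HBA1 motif 51 nt after the stop codon had 0.102 in icSHAPE in vivo against 0.00780 in vitro, and 0.0882 against 0 in icLASER. In HBA2, 4 of the 5 motifs were higher in vivo in icSHAPE, and the motif 38 nt after the stop codon was lower (0.122 in vivo, 0.223 in vitro). Beside 3′ UTR means of 0.0952 in HBA1 and 0.129 in HBA2, the motif means in icSHAPE in vivo ran from 0.00920 to 0.102 and from 0.0512 to 0.191.

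The 3′ UTRs are where the alpha globins can be told apart. Their first 30 nt are shown with capitals at nucleotides reactive in icSHAPE in vivo.
HBA1 chr16:177412-177441 plus strand: gcuggagccucgguggccaugcuucuugcc
HBA2 chr16:173601-173630 plus strand: gcuggagccucgguagcCGUucCuccugcc
The mean over these 30 nt was 0.0741 for HBA1 and 0.182 for HBA2 in icSHAPE in vivo, and 0.0541 and 0.0260 in vitro. In icLASER it was 0.0909 and 0.221 in vivo and 0.0326 and 0.146 in vitro. In icSHAPE in vivo 0 nucleotides of HBA1 and 4 of HBA2 were reactive, and in icLASER in vivo 1 and 4.

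Start codons had low scores in all 6 mRNAs. The 15 nt before the start codon and the 15 nt from its first nucleotide on are shown, once for each near-identical pair, with the start codon in capitals.
HBG1 chr11:5249790-5249819 and HBG2 chr11:5254714-5254743, minus strand: ccuaguccagacgccAUGggucauuucaca
HBE1 chr11:5269876-5269905 minus strand: cucaggccuggcaucAUGgugcauuuuacu
HBZ chr16:152895-152924 plus strand: gcccacccugccgccAUGucucugaccaag
HBA1 chr16:176702-176731 and HBA2 chr16:172898-172927, plus strand: cagagagaacccaccAUGgugcugucuccu
In icSHAPE in vivo the A of the start codon scored 0.0610 to 0.172 over the 6 genes, U 0.00800 to 0.0350 and G 0.00700 to 0.0790. Over 3397 other start codons the mean scores were 0.298, 0.136 and 0.263 and the medians 0.191, 0.00800 and 0.0990, so that A and G were below both in every globin gene and U was below the mean only. In icLASER in vivo the globin G scored 0.0200 to 0.283 with a median of 0.0830, beside a mean of 0.365 and a median of 0.203 over 3539 other start codons, and HBZ was the 1 gene above that median. The mean over the 3 nt lay below the median start codon (0.166) in all 6 genes in icSHAPE in vivo, at 0.0503 to 0.0923. It was below the median in the other 3 profiles as well, and still below when only start codons of transcripts with an RPKM of at least 100 were compared. The percentile among all start codons was 21.0 to 33.1 in icSHAPE in vivo and 25.3 to 44.1 in icLASER in vivo. The nucleotide just before the start codon, C in all 6, was higher than the A that followed in icSHAPE in vivo in 5 of 6 genes, at 0.260 in HBG1 and 0.449 in HBA1, and the nucleotide at this place, of any base, exceeded the A in 72.8% of other coding transcripts. HBE1 was the exception with 0.0850, and instead its A at 3 nt before the start codon scored 0.701 in vivo and 1 in vitro.

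Stop codons were less alike. HBA1 and HBA2 end in UAA, and the U scored 0.900 and 0.419 in icSHAPE in vivo, whereas in HBG1, HBG2, HBE1 and HBZ, which end in UGA, the U scored 0.0160 to 0.118. In HBA1 the U was also high in vitro, at 1, and in HBA2 it was 0.359. The last A of HBE1 scored 0.562 in icSHAPE and 1 in icLASER in vivo, against 0.159 and 0.366 in vitro. The 2 genes of the alpha pair share their coding reads, so these values are not separate measurements.

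Along the codons, the middle nucleotide had the lowest mean score in all 6 genes in each of the 4 profiles. The same held for 73.9% of other coding sequences in icSHAPE in vivo, 66.6% in vitro, 86% in icLASER in vivo and 88.1% in vitro. In HBA1 the means of the 3 codon positions were 0.286, 0.119 and 0.189 in icSHAPE in vivo and 0.263, 0.136 and 0.245 in icLASER in vivo. In HBZ they were 0.260, 0.0895 and 0.204, and 0.265, 0.118 and 0.262. G made up 32.9% to 37.1% of first positions and 11.2% to 16.9% of middle positions in the 6 genes. G was also the base with the highest icLASER mean in every gene (0.341 to 0.434 in vivo) and held 67.8% of the icLASER-reactive nucleotides in vivo on 26.3% of the scored ones. A, the other purine, held 12.4% of them on 21.0%. In icSHAPE the highest base was A in 4 genes and U in 2. The part of base composition in the codon pattern was not tested.

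At the last exon junction of the coding sequence, scores exceeded their in vitro level in cells by more than over the whole coding sequence in 6 of 6 genes with both reagents. Among other coding transcripts 55% were larger at this junction in icSHAPE and 74.7% in icLASER. At the first coding junction the count was 4 of 6 in icSHAPE, beside 53.8%, and 0 of 6 in icLASER, beside 30%. The 12 nt on each side of the last junction are shown in GRCh38 by their 2 exon parts, with capitals at nucleotides reactive in icSHAPE in vivo. The junction lies after the 12th nucleotide.
HBG1 chr11:5249368-5249379 and chr11:5248476-5248487, minus strand, same letters in HBG2: gaGAaCUuCaagcuccugggaAau
HBE1 chr11:5269454-5269465 and chr11:5268586-5268597, minus strand: gagaacuucaagcuccuggguAac
HBZ chr16:154085-154096 and chr16:154272-154283, plus strand: GucAaCUucaagCuccuGucccac
HBA1 chr16:177122-177133 and chr16:177283-177294, plus strand, same letters in HBA2: GucAaCUucaagCucCUaagcCac
The icSHAPE mean of these 24 nt was 0.320 in vivo and 0.167 in vitro in HBG1, 0.310 and 0.153 in HBG2, and 0.358 and 0.199 in HBZ. It was 0.370 and 0.286 in HBA1 and 0.376 and 0.257 in HBA2. HBE1 had 0.136 and 0.0442. The first 20 of these nucleotides are identical in HBG1, HBG2 and HBE1. Over those 20 nt the icSHAPE in vivo mean was 0.327 in HBG1 and 0.318 in HBG2 with 5 reactive nucleotides each, against 0.0926 in HBE1 with 0. In icLASER in vivo the means were 0.222, 0.191 and 0.0541. The same 20-nt sequence had a lower mean in HBE1 in all 4 profiles, each on the scale of its own transcript, and HBE1 was also the gene of lowest RPKM.

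The polyadenylation signal AAUAAA was scored in HBG1, and in the other 5 mRNAs it fell in the last 30 nt, which have no score. In HBG1 it starts 30 nt before the annotated end and is shown in capitals with its neighbours. Of other 3′ UTRs, 42.2% hold it in their last 30 nt.
HBG1 chr11:5248281-5248310 minus strand: agcaauacaaauAAUAAAucuauucugcug
From its first to its last nucleotide the hexamer scored 0.715, 0.20, 0.184, 0.0550, 0.332 and 0.143 in icSHAPE in vivo, with a mean of 0.272 against 0.0905 in vitro. In icLASER it scored 0.643, 0.260, 0.182, 0.117, 0.320 and 0.25 in vivo, with a mean of 0.295 against 0.0428 in vitro. All 6 nucleotides were higher in vivo with both reagents. The 30 nt that end with the hexamer had the largest icLASER difference of the HBG1 mRNA, 0.369 in vivo and 0.114 in vitro, and 30 of 30 nt were higher in vivo. The 24 nt between the hexamer and the annotated end were near 0 in every profile, with a highest score of 0.00800 to 0.0370. Past the annotated end no score exceeded 0.1 before nt 9 to 18, depending on the profile. The scored nucleotides past the end had means of 0.0992 in vivo and 0.0842 in vitro in icSHAPE, and 0.231 and 0.238 in icLASER, with 74.4% of scores at 0 in icSHAPE in vitro. In the annotated 3′ UTR the icLASER means were 0.232 and 0.126.

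The paralogs can be separated only where their sequences differ. HBG1 and HBG2 were identical at 442 of 444 coding nucleotides, the differences being C227U and C410G (HBG1 base first, HBG2 base last, counted from 1 at the A of the start codon). The second changes codon 137, which is known to separate the alanine and glycine gamma chains. HBA1 and HBA2 were identical at all 429 coding nucleotides and at 91 of 110 aligned nucleotides of the 3′ UTR. Reads from identical stretches cannot be assigned to either gene, so the RPKM and coding scores within a pair are not independent. The coding scores of HBG1 and HBG2 correlated across 444 positions with r = 0.976 in icSHAPE in vivo and 0.945 in vitro, and 0.951 and 0.970 in icLASER. Those of HBA1 and HBA2 correlated with 0.975, 0.895, 0.976 and 0.983 across 429 positions. In the 3′ UTR the correlations of the alpha pair were 0.445 and 0.124 in icSHAPE and 0.458 and 0.353 in icLASER, over 80 positions. The positions there with the same 5 nt around them (29) had r = 0.825 in icSHAPE in vivo, 0.165 in vitro, 0.881 in icLASER in vivo and 0.935 in vitro, and the other 51 had 0.230, -0.0337, 0.401 and 0.240. Between more distant relatives, HBG1 and HBE1 (83.6% identical in the coding sequence) correlated with 0.527 in icSHAPE in vivo, and HBA1 and HBZ (68.5%) with 0.414.

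Transcript variants overlap the main mRNAs, and their RPKM cannot be separated from them here. A variant of HBG2 has a first exon at chr11:5505351-5505605, 250540 nt upstream of the main 5′ end, and its RPKM was 1210 in icSHAPE in vivo. The 249 scored nucleotides outside the main HBG2 mRNA had 39.0% of scores at 0 in icSHAPE in vivo and 79.5% in vitro, against 6.36% and 18.6% at the shared ones, although their mean was higher (0.297 and 0.182 against 0.0943 and 0.0711). In the 2 HBE1 variants, 17.8% and 34.1% of scores were 0 at their own nucleotides in icSHAPE in vivo, against 15.05% and 18.4% at the shared ones. In the 4 variants of the alpha genes that have nucleotides outside the main mRNA, the icSHAPE in vivo scores were 0 at 84.6% to 96.9% of those nucleotides and at 14.8% to 19.0% of the shared ones. Their RPKM in that profile was 162 to 216.

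Within each gene the scores of the 2 conditions were more alike than those of the 2 reagents. Across 541 to 791 positions, the in vivo and in vitro scores correlated with r = 0.646 to 0.796 in icSHAPE and 0.686 to 0.858 in icLASER. The medians over all transcripts were 0.498 and 0.562. The 2 reagents correlated with 0.459 to 0.594 in vivo and 0.337 to 0.552 in vitro, where the medians were 0.365 and 0.377. These positions share depth and base composition, and the globin mRNAs are among the more covered transcripts. Those of HBG1 include 156 past its annotated 3′ end. Positions reactive to both reagents made up 3.54% of HBE1 in vivo (28 of 791, 95% Wilson interval 2.46% to 5.07%) and 5.70% of HBG1 (44 of 772, 4.27% to 7.56%), with the other 4 genes between. These shares were 3.27 to 5.15 times those of independent calls in vivo and 3.00 to 4.21 times in vitro. The ratio was not computed for other transcripts, so it cannot be read as a trait of the globins. The intervals cover the counting of positions only.

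In the minimum free energy structures predicted for whole transcripts, unpaired nucleotides had higher icSHAPE means than paired ones in all 6 genes, in vivo and in vitro. The HBG1 structure was that of the 808-nt placed mRNA, with 35 nt upstream and 186 nt downstream of its model. Among 153 and 148 other coding transcripts of 500 to 900 nt with an RPKM of at least 100, 97.4% and 98.6% did. The differences were 0.0694 to 0.0980 in vivo and 0.0713 to 0.140 in vitro. In HBZ the icSHAPE means were 0.226 at unpaired and 0.128 at paired nucleotides in vivo, and 0.225 and 0.0858 in vitro. In icLASER the difference was positive in 3 of 6 genes in vivo and 5 of 6 in vitro, beside 68.4% and 72.2% of the other transcripts. It ranged from -0.0353 in HBA2 to 0.0245 in HBG1 in vivo.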

How the data were processed

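Of 14 K562 libraries, GEO holds the authors' 4 pooled profiles, 1 per reagent and condition. The authors aligned reads to the Ensembl release 88 transcriptome of GRCh38 and ran the icSHAPE pipeline with its final coverage minimums set to 0. The submitters' processing notes name Trimmomatic and Bowtie2. Tool versions and the treatment of reads that map to several transcripts are not given in the sources used here. RPKM is the authors' value per transcript, a read density scaled to transcript length and library total. The score per nucleotide was deposited by the authors on a scale from 0 to 1, computed against the DMSO or no-UV control. From these values, Python 3.11.15 with numpy 2.4.6 and scipy 1.17.1 gave means, differences in vivo minus in vitro over positions scored in both profiles, and percentiles among coding transcripts whose length equals GENCODE 44 (at least 20 positions scored in a region). Unequal globin transcripts were placed on the genome within 400 nt of the model by correlation with mean scores of 5-nt sequences from 3634 to 3947 other transcripts (RPKM of at least 20). The procedure returned 50 of 50 simulated transcripts to their place. Their scores were drawn from the same 5-nt means with added noise, and their places lay inside annotated transcripts. The simulation therefore checks the search alone and cannot test the ends placed outside a model. Structures came from RNAfold (ViennaRNA 2.7.2) and alignments from Biopython 1.88. Each gene is described by its transcript of highest mean RPKM. Named stretches are the 30-nt windows with the highest mean in vivo or the largest absolute difference, and elements are start and stop codons, coding junctions, AAUAAA and CCUCC. Scores of 0.5 or more counted as reactive. With 1 pooled profile per condition no test was run, and the depth of single libraries is unknown. The members and lists were chosen with earlier results of these data known.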

Additional observations from a re-analysis of the deposited data

How the results depend on the processing

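No paired analysis was possible because each reagent and condition has 1 pooled profile. Of 60 counts over the 6 genes under alternatives, 55 stayed within 1.5 times the reported count. The exceptions were the icSHAPE 5′ UTR with A and G alone (1 gene higher in vivo instead of 0), the icLASER 5′ UTR by medians (0 instead of 1), the icLASER coding sequence after division by the transcript's mean (3 instead of 5) and by rank within the transcript (3), and the icSHAPE RPKM count after division by the median RPKM (0 instead of 1). By rank within the transcript, the icSHAPE 3′ UTR difference of HBG1 became -0.0339 and that of HBZ -0.00369 in rank units from 0 to 1. The alternatives by transcript mean, by rank and by RPKM of at least 100 were chosen after seeing the data, and the cause of these changes was not tested. Of 344 values of single genes, 8 changed sign. Beside the 2 above these were the icSHAPE 5′ UTR of HBA1 with A and G alone (0.00693), the HBA1 coding sequence after division by the transcript's mean (-0.0298 in icSHAPE, -0.0513 in icLASER) and by rank in icLASER (-0.0159), and the HBA2 coding sequence in icLASER (-0.0324 and -0.0127). The 5′ UTR of HBG1, HBG2, HBZ, HBA1 and HBA2 was lower in vivo with both reagents by mean, by division by the transcript's mean and by rank. Positions are not replicates, the scale of each score is set within its transcript, and the limits of UTRs rest on the placement for all genes but HBA1.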
